A study of Bos taurus with 81 samples.

Results

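The regions described here were 6394 stretches of the cattle autosomes, 1 to 29, that were open and marked by H3K27ac in the inner cell mass (ICM) of the bovine blastocyst and not open in its trophectoderm (TE). A stretch was taken where all 3 ATAC lists and both H3K27ac lists of the ICM covered 200 bp or more without a break, where no peak of any of the 3 TE ATAC lists overlapped it, and where the nearest H3K4me3 peak of the ICM, TE or whole blastocyst was at least 1 kb away. They were 13.4% of the 47675 stretches common to the 5 ICM lists. The regions were thus chosen on measured values, and openness in ICM and TE, H3K27ac in ICM, and H3K4me3 in the blastocyst and its parts are properties of the choice and not results. H3K27ac at earlier stages and in TE, H3K4me3 up to the morula, H3K27me3 and H3K9me3 in every group, and openness of the whole blastocyst played no part in it.

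Enhancers are stretches of DNA at a distance from gene starts that bind transcription factors and raise transcription from promoters. Active ones lie in open chromatin, which the transposase of ATAC-seq can reach, and their flanking nucleosomes carry H3K27ac, whereas active promoters carry H3K4me3. The blastocyst holds the first segregated lineages of the embryo: the ICM, from which the fetus and yolk sac arise, and the TE, which builds the embryonic part of the placenta. H3K27me3, placed by Polycomb repressive complex 2, and H3K9me3, the mark of constitutive heterochromatin, are both associated with silent chromatin, and Polycomb in particular keeps genes of other lineages silent.

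The series profiled bovine oocytes and in vitro produced embryos by CUT&Tag, in which an antibody brings a transposase to a histone mark, and by ATAC-seq. Libraries were made from oocytes at the germinal vesicle stage (GV), from embryos of 2 cells (2C, 32 h after insemination), 4 cells (4C, 44 h) and 8 cells (8C, 56 h), 8-cell embryos of the same age cultured with 50 μg/ml of the RNA polymerase II inhibitor α-amanitin (8A), morulae (MO, 122 h), whole blastocysts (BL, 172 h), and ICM and TE taken from blastocysts. Each of the 4 marks had 2 libraries in each of the 9 groups, and ATAC-seq had 3 libraries each in BL, ICM and TE, so 81 in all. The ICM was isolated by immunosurgery, which lyses the outer cells, and the TE was cut off with a scalpel, so each may hold some cells of the other. About 500 oocytes or 1000 to 1500 blastomeres were pooled for a library, and nothing in the labels ties a library to particular embryos, so p-values measure the spread between these libraries, which may be technical.

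The files were lists of peaks, called on each library separately, and held no totals of reads, so the depth behind a list was unknown. As a share of the autosomes, H3K27ac lists covered 1.75% to 5.70%, H3K4me3 lists 1.51% to 7.08%, H3K27me3 lists 4.42% to 11.3%, H3K9me3 lists 3.88% to 7.54% and ATAC lists 3.25% to 4.69%, and longer lists can cover more of any set of regions. For that reason the covered share of the autosomes is given beside the main values. The labelled ICM and TE were not checked against marker genes here, because no gene annotation of the genome build of the peaks was used.

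The regions were short and scattered. Their length was 200 bp to 2350 bp with a median of 350 bp, and together they spanned 2733.8 kb. The density was 2.57 regions per Mb over the autosomes, from 1.21 per Mb on the sparsest chromosome to 3.31 on the densest, with a median gap of 95000 bp to the next region. They lay in 6044 different H3K27ac stretches common to both ICM lists; 5734 of these held 1 region, 310 held 2 or more, and the most was 5. The median distance to the nearest H3K4me3 peak of BL, ICM or TE was 20200 bp. The nearest ATAC peak of TE lay at a median of 4600 bp, and 17.4% of the regions had such a peak within 1 kb without an overlap.

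The ICM peaks that held the regions ranked lower by score than those of regions open in both lineages. With peaks ranked within a list by the score the authors deposited for each peak, whose meaning was not established, the median rank was at percentile 55.6 to 58.8 in the 3 ATAC lists and 60.3 to 62.9 in the 2 H3K27ac lists. For comparison, 3429 distal stretches open and marked by H3K27ac in both lineages, called shared below, lay in peaks at percentiles 69.3 to 72.6 for ATAC and 74.0 to 75.7 for H3K27ac. At the length limit, 555 regions were exactly 200 bp long and 334 stretches of 150 bp were left out, and H3K27ac of MO marked 58.0% and 51.5% of them. At the distance limit, 253 regions had H3K4me3 at 1000 to 1450 bp and 279 stretches left out had it at 500 to 950 bp, with 60.5% and 62.7% marked in MO.

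H3K27ac was sparse over these regions until the morula, covered a mean of 66.8% of their bases there, and was lower in whole blastocysts and in TE. The percentage of region bases under H3K27ac peaks was 13.6% and 14.5% in the GV libraries, 4.68% and 5.54% in 2C, and 4.81% and 5.14% in 4C. It was 15.2% and 15.4% in 8C, 69.3% and 64.2% in MO, and 18.7% and 22.5% in BL. Both MO libraries lay far above all 10 others, and both 8C libraries lay above both 4C and both 2C libraries. The group means were 14.1% ± 0.632 in GV, 5.11% ± 0.608 in 2C, 4.97% ± 0.237 in 4C, 15.3% ± 0.146 in 8C, 66.8% ± 3.57 in MO and 20.6% ± 2.63 in BL (SD, n = 2 each). The 12 libraries grouped by stage more tightly than by nearly all of the 10395 ways to arrange them in pairs (exact permutation test, one-sided, p = 0.000289, Benjamini-Hochberg adjusted over the 4 marks 0.000577).

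The lists differed in length: H3K27ac covered 4.58% of the autosomes in MO, 5.39% in GV, 2.47% in 2C, 1.76% in 4C, 3.62% in 8C and 2.09% in BL. Relative to that share, the regions were covered 14.6-fold in MO, 9.85-fold in BL, 4.23-fold in 8C and 2.07-fold to 2.83-fold in GV, 2C and 4C. With all H3K27ac lists shortened to their highest-scoring 43.4 Mb, the values were 26.7% and 27.3% in MO, 13.3% and 11.9% in BL, 7.51% and 7.35% in 8C, and 3.13% to 5.06% in GV, 2C and 4C. On that equal length MO remained the highest stage. The ICM lists that chose the regions themselves covered 23.8% and 26.0% of their bases when shortened in this way.

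**Figure D1:**
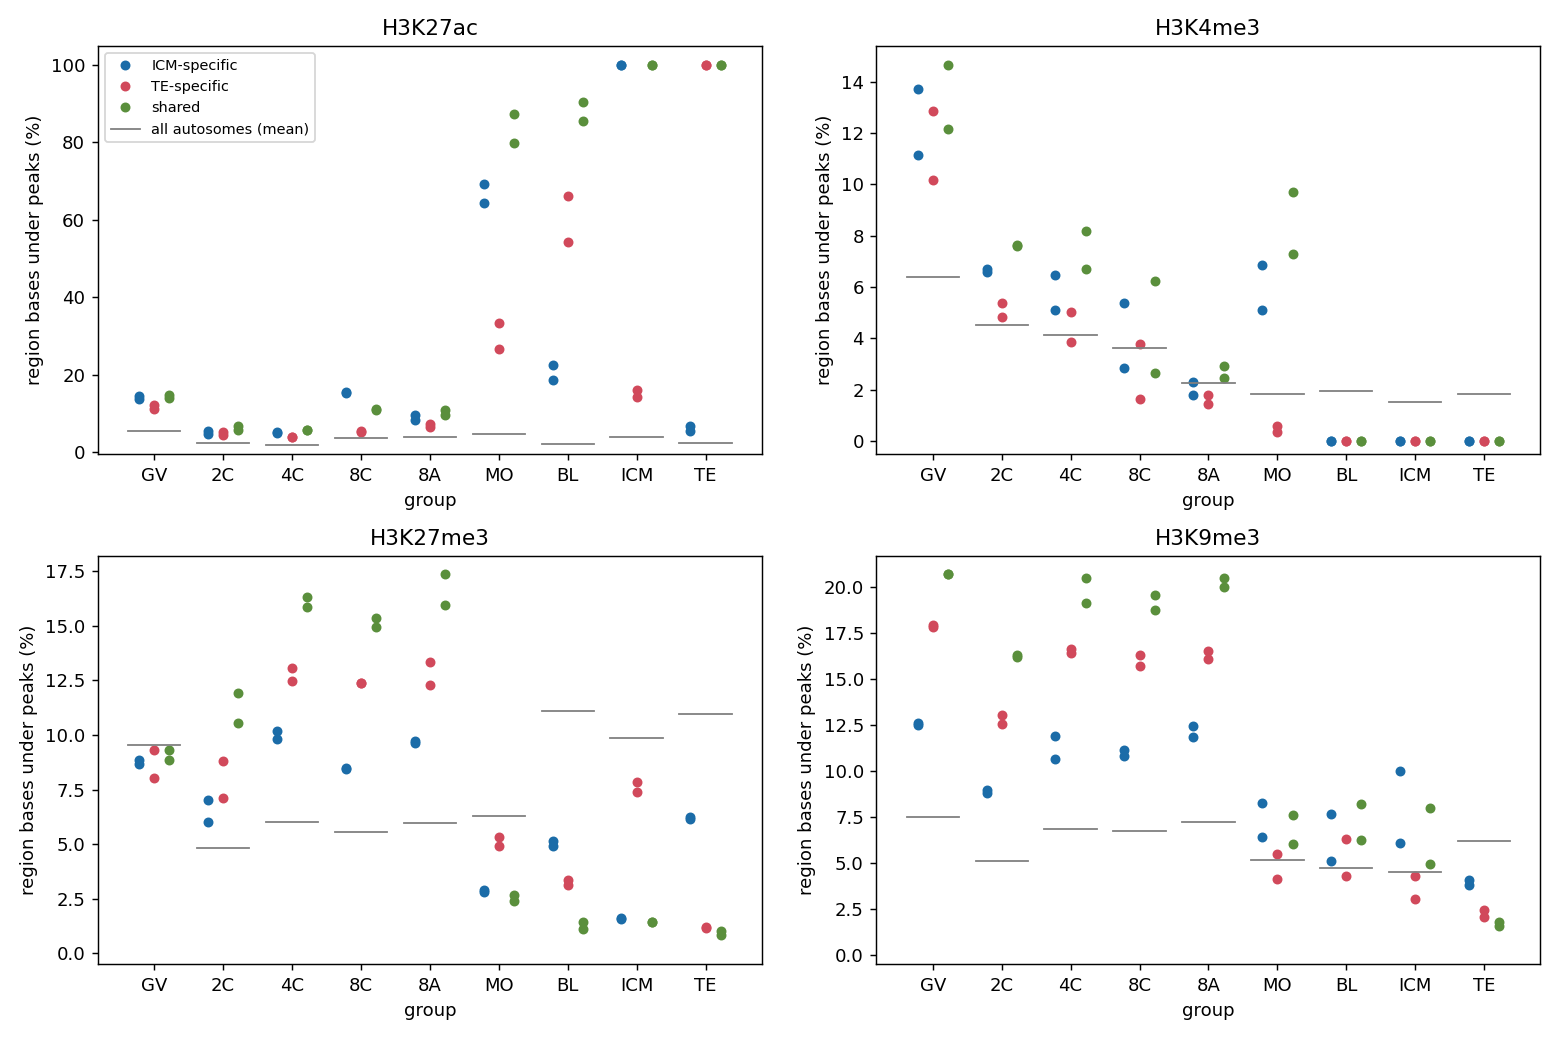
Percentage of region bases under peaks (vertical axes) in each library of each group (horizontal axes) for H3K27ac, H3K4me3, H3K27me3 and H3K9me3, with 1 point per library, colours for the ICM-specific, TE-specific and shared distal regions, and grey bars for the mean share of all autosomes covered. H3K27ac over ICM-specific regions reached 69.3% and 64.2% in MO and was 18.7% and 22.5% in BL; values of 0 or 100 in ICM, TE and, for H3K4me3, BL follow from how the regions were chosen.

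The first stage with H3K27ac was read for each region as the earliest stage at which both libraries covered at least 50% of its length; a region that met this is called marked below. Of the 6394 regions, 2926 (45.8%) were first marked in MO, which was the most common start. No stage up to BL marked 1983 (31.0%), among them 29 marked in TE. GV was the first stage of 708 (11.1%), 8C of 529 (8.27%), BL of 116 (1.81%), 2C of 68 (1.06%) and 4C of 64 (1.00%). The lists covered 5.39% of the autosomes in GV and 1.76% in 4C, and these counts were not redone on lists of equal covered length. On such lists 4C covered 4.81% and 5.06% of the region bases and GV 3.66% and 3.53%, so the sizes of the classes also depend on list length. The small classes changed in size when 1 library was left out. With 1 library of a stage left out, the other alone had to cover a region. 2C became the first stage of 196 without 2C replicate 1 and of 160 without replicate 2. 4C became that of 167 and 173 without 4C replicate 1 and 2. BL became that of 56 without MO replicate 2 and of 201 without BL replicate 1. Where 1 covered library was enough, 1116 regions had no mark up to BL. The count of 1983 also depends on the 50% limit, since 1003 regions (15.7%) had no base under an H3K27ac peak in any library from GV to BL.

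A region could only be picked with H3K27ac in ICM, so the counts were read against all 17890 distal ICM stretches chosen in the same way without the condition on TE. Among all these stretches, 50.2% were first marked in MO, 12.8% in GV and 6.43% in 8C. BL was the first stage of 4.70%, 2C of 1.33% and 4C of 1.21%, and 23.3% had no mark up to BL. A start in MO was thus not more common among the regions than in the whole distal set. H3K27ac marked 708 regions in GV (11.1%, against 12.8% of all distal ICM stretches), 151 in 2C (2.36%, against 3.00%) and 158 in 4C (2.47%, against 3.07%). It marked 732 in 8C (11.4%, against 9.82%), 3914 in MO (61.2%, against 66.1%) and 994 in BL (15.5%, against 33.5%). In GV, 2C, 4C, 8C and MO the share was thus near that of the whole distal set, which contains these regions, and in BL it was less than that of the whole set by the widest margin among the 6 stages.

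**Figure D2:**
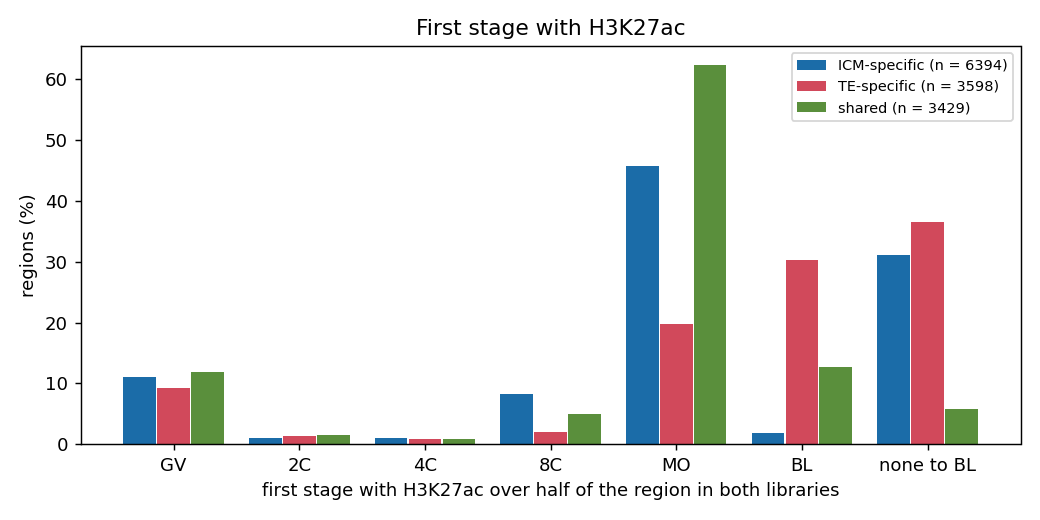
Percentage of regions (vertical axis) by the first stage at which H3K27ac covered at least 50% of the region in both libraries (horizontal axis), for the 6394 ICM-specific, 3598 TE-specific and 3429 shared distal regions; "none to BL" are regions that reached this at no stage up to the blastocyst. The first stage was MO for 45.8% of the ICM-specific, 19.8% of the TE-specific and 62.3% of the shared regions, and BL for 1.81%, 30.2% and 12.7%.

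Most regions marked by H3K27ac in the oocyte were unmarked in 2C, where the lists were shorter. Of the 708 regions marked in GV, 625 (88.3%) were unmarked in 2C and 198 had no later mark up to BL. These shares were not computed for all distal ICM stretches, of which 12.8% were marked in GV and 3.00% in 2C. The lists covered 5.39% of the autosomes in GV and 2.47% in 2C. On lists of equal covered length the regions were at 3.66% and 3.53% in GV and 3.60% and 3.13% in 2C. In MO, 441 of the 708 (62.3%) were marked, like the 61.2% of all regions, and so were 67.1% of all distal ICM stretches marked in GV. Of the 529 regions first marked in 8C, in contrast, 467 (88.3%) were marked in MO; the same share among all distal ICM stretches first marked in 8C was 88.0%. The most frequent sequences of states from GV to BL were MO alone (2262 regions), none (1983), MO with BL (664) and 8C with MO (373). A mark at every stage from GV to BL was seen in 2 regions.

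These 2 regions show the continuous case. At chr6:69691601-69692350 (750 bp, ARS-UCD1.2), H3K27ac covered 80.0% and 100% in GV, 93.3% and 53.3% in 2C, 60% and 66.7% in 4C, 93.3% and 100% in 8C, 100% in both MO libraries, and 86.7% and 100% in BL. At chr26:39194251-39194650 (400 bp) every library from GV to BL covered 75% or more. Both regions also stayed covered in 8A, with 73.3% and 100% at the first and 100% and 87.5% at the second, and neither had a base under H3K27ac in TE.

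In embryos grown with α-amanitin, which blocks transcription by RNA polymerase II and with it the genome activation that cattle embryos undergo around the 8-cell stage, H3K27ac over the regions was lower than in untreated 8-cell embryos. The libraries covered 9.64% and 8.19% of the bases in 8A and 15.2% and 15.4% in 8C, without overlap. The difference was 6.41 percentage points, and with 2 libraries a side the exact two-sided permutation test gives 0.333, the smallest p it can give. The 8A lists were no shorter, at 3.99% of the autosomes against 3.62%, so relative to the autosomes the regions were covered 2.24-fold in 8A and 4.23-fold in 8C. Over the 3598 distal regions open in TE and not in ICM, chosen by the mirrored rule and called TE-specific, the difference had the other sign, 5.31% in 8C and 6.93% in 8A.

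Region by region, 395 were marked in 8A (6.18%, against 7.59% of all distal ICM stretches). Of the 732 regions marked in 8C, 172 (23.5%) were marked in 8A too; of the 126 TE-specific regions marked in 8C it was 50 (39.7%), and of 272 shared regions 98 (36.0%). Among the 529 regions with their first mark in 8C, 74 were marked in 8A and 355 (67.1%) had no base under a peak in either 8A library. The repressive marks covered slightly more of the bases in 8A, on longer lists. H3K27me3 covered 8.44% and 8.47% in 8C and 9.73% and 9.63% in 8A, and H3K9me3 11.1% and 10.8% in 8C and 12.4% and 11.8% in 8A. Relative to the autosomes this was 1.52-fold in 8C and 1.62-fold in 8A for H3K27me3, and 1.62-fold and 1.68-fold for H3K9me3. On lists of equal covered length, H3K27me3 was at 6.48% and 6.28% in 8C and 6.71% and 6.54% in 8A. H3K9me3 then overlapped, at 5.74% and 5.99% in 8C and 6.00% and 5.85% in 8A.

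The whole blastocyst, which contains the ICM, had H3K27ac over fewer of these regions than MO, on shorter lists. The BL lists covered 2.09% of the autosomes and the MO lists 4.58%. On lists of equal covered length the regions were covered at 13.3% and 11.9% in BL and 26.7% and 27.3% in MO. The ICM lists, shortened in the same way, covered 23.8% and 26.0%. Of the 3914 regions marked in MO, 862 (22.0%) were also marked in BL and 3052 were not; the share was 73.2% for TE-specific regions (632 of 863) and 88.5% for shared ones (2378 of 2688). BL covered 18.7% and 22.5% of the bases of ICM-specific regions but 54.3% and 66.1% of TE-specific and 85.6% and 90.3% of shared bases. In such bulk libraries fewer cells of a type and less of the mark per cell cannot be told apart.

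Openness of the whole blastocyst was closer between the lineage sets. ATAC of BL covered 62.3%, 61.6% and 77.4% of the bases of ICM-specific regions in its 3 libraries and 58.1%, 64.6% and 77.2% of those of TE-specific regions. All 3 libraries covered 2998 of the ICM-specific regions (46.9%, against 70.0% of all distal ICM stretches) and 46.7% of the TE-specific ones, and no library reached 827 ICM-specific regions (12.9%), 8.53% of the TE-specific ones and 5.34% of all distal ICM stretches. So with ATAC the covered shares of bases of the lineage sets overlapped over the BL libraries, whereas with H3K27ac both BL libraries covered fewer bases of the ICM-specific set.

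Before the lineages separate, H3K27ac was denser over the later ICM-specific than over the later TE-specific regions. The difference was positive in all 10 libraries of GV, 2C, 4C, 8C and MO and averaged 10.1 percentage points (exact two-sided sign-flip permutation test over libraries, p = 0.00195, the smallest it can give, adjusted over the 4 marks 0.00391). It was small in 2C, at 0.221 and 0.381 points, and in 4C, at 0.807 and 1.33 points. It was 10.0 points in both libraries of 8C, 36.0 and 37.6 in MO, and, outside the test, -35.5 and -43.6 in BL. In 8A it was 2.27 and 1.72 points. With all lists shortened to equal covered length the mean over the 10 libraries was 5.36 points (exact sign-flip permutation p = 0.00195). Against shared regions the sign was the other way on average, with a mean difference of -2.91 points (p = 0.377 by the same exact test). The 2 libraries of a stage share that stage, and a sign-flip test over the 5 stages could not give a p below 0.0625. This limit holds equally for the sign-flip tests of H3K4me3, H3K27me3 and H3K9me3 given below.

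H3K4me3, which the choice kept away only in the blastocyst and its parts, was present over some regions earlier. It covered 11.1% and 13.7% of their bases in GV, 6.71% and 6.59% in 2C, 5.09% and 6.46% in 4C, 2.86% and 5.39% in 8C, and 5.12% and 6.85% in MO. The stage grouping gave p = 0.0402 (exact permutation test over 10 libraries, one-sided, adjusted 0.0402), a call lost without 2C replicate 1 or 2 (0.0603 each) or without 8C replicate 1 (0.0783). In MO the TE-specific regions were almost free of it, with 0.365% and 0.609%. Over the 10 libraries the ICM-specific set carried 2.13 points more than the TE-specific set, higher in 10 of 10 (exact sign-flip permutation test, p = 0.00195, adjusted 0.00391). On lists of equal covered length the mean was 0.531 points, and against shared regions it was -1.29 points (p = 0.00391 by the same exact test).

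In MO, H3K4me3 marked 232 of the regions (3.63%, against 4.32% of all distal ICM stretches) and 9 of the 3598 TE-specific regions. None of the 232 had such a peak within 1 kb in BL, ICM or TE, since that would have kept it out. Nearly all of them, 230, were also marked by H3K27ac in MO. H3K27ac marked 86 of them (37.1%) in 8C and 89 (38.4%) in BL, compared with 11.4% and 15.5% of all regions. Such shares were not computed for all distal ICM stretches with H3K4me3 in MO, so they are not shown to be particular to these regions.

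H3K27me3 was low over these regions in MO and lowest in the ICM. It covered 8.68% and 8.84% of the bases in GV, 6.01% and 7.03% in 2C, 10.2% and 9.81% in 4C, 8.44% and 8.47% in 8C, 2.92% and 2.80% in MO, and 5.14% and 4.91% in BL. No other of the 10395 arrangements in pairs grouped the libraries as tightly (exact permutation test, one-sided, p = 9.62e-05, the smallest it can give, adjusted 0.000385). From 2C to 8C the regions were covered more than the autosomes, 1.35-fold to 1.66-fold, and in MO and BL less, at 0.455-fold and 0.452-fold. Before the lineages separate, the mean difference from the TE-specific regions was -2.06 points, lower in 9 of 10 libraries (exact two-sided sign-flip permutation test, p = 0.00586, adjusted 0.00781).

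H3K9me3 covered 12.5% and 12.6% of the bases in GV, 8.95% and 8.81% in 2C, 10.6% and 11.9% in 4C, 11.1% and 10.8% in 8C, 6.41% and 8.24% in MO, and 5.10% and 7.64% in BL. Every GV, 2C, 4C and 8C library lay above every MO and BL library (exact permutation test of the stage grouping, one-sided, p = 0.00529, adjusted 0.00705). The difference from the TE-specific regions was -5.73 to -3.75 points in every library up to 8C, and 2.31 and 2.76 points in MO. Over the 10 libraries it averaged -3.39 points, lower in 8 (exact two-sided sign-flip permutation test, p = 0.0156, adjusted 0.0156).

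In 8C the repressive marks lay largely on the same regions. There H3K27me3 marked 420 (6.57%, against 10.3% of all distal ICM stretches) and H3K9me3 571 (8.93%, against 13.7%). Both were on 373 regions, which is 88.8% of the 420 and 65.3% of the 571. Of the 420, 46 (11.0%) were also marked by H3K27me3 in MO, and of the 571, 51 (8.93%) by H3K9me3. The shares with both marks, or marked again in MO, were not computed for all distal ICM stretches. They are thus not shown to be particular to these regions. H3K27ac marked 232 of the 420 (55.2%) and 314 of the 571 (55.0%) in MO, somewhat below the 61.2% of all regions. In MO, H3K27me3 marked 142 regions (2.22%, against 2.35%) and H3K9me3 380 (5.94%, against 5.03%).

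Few of the regions were under a repressive mark in TE. H3K27me3 marked 305 there (4.77%, against 4.09% of all distal ICM stretches and 9.61% of all 200 bp tiles of the autosomes). H3K9me3 marked 185 (2.89%, against 2.12% and 4.89%). Both marks together were on 85 and either on 405 (6.33%), while 5835 regions (91.3%) had no base under either mark in any of the 4 TE libraries. H3K27ac of TE marked 270 (4.22%, against 23.5%), and 5632 (88.1%) had no base of it in either TE library. Most of these regions were thus outside the peaks of the repressive marks and of H3K27ac in TE, where the choice itself kept out openness and H3K4me3. The shares marked by H3K27me3 and H3K9me3 were near those of all distal ICM stretches. Scarcity of repressive marks in TE was therefore not particular to these regions. The shares without any covered base were not computed for all distal ICM stretches. Because ICM against TE is the contrast that chose the regions, the values for ICM and TE are described and not tested.

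H3K27me3 differed between the lineages over these regions, in mirror image to the TE-specific ones. Over ICM-specific regions it covered 1.61% and 1.59% of the bases in ICM and 6.24% and 6.16% in TE, which is 3.88-fold. Over TE-specific regions it covered 7.84% and 7.38% in ICM and 1.16% and 1.2% in TE. Over shared regions it covered 1.43% and 1.45% in ICM and 0.823% and 1.04% in TE. All distal ICM stretches, which contain these regions, were covered at 2.00% and 1.97% in ICM and 5.26% and 5.37% in TE. The direction was thus not particular to these regions. The autosomes as a whole were covered at 9.88% in ICM and 11.0% in TE, so in the lineage in which they were closed the regions carried less H3K27me3 than the genome average, and in the lineage in which they were open less still. These H3K27me3 values were not part of the choice, but the lineage contrast was.

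**Figure D3:**
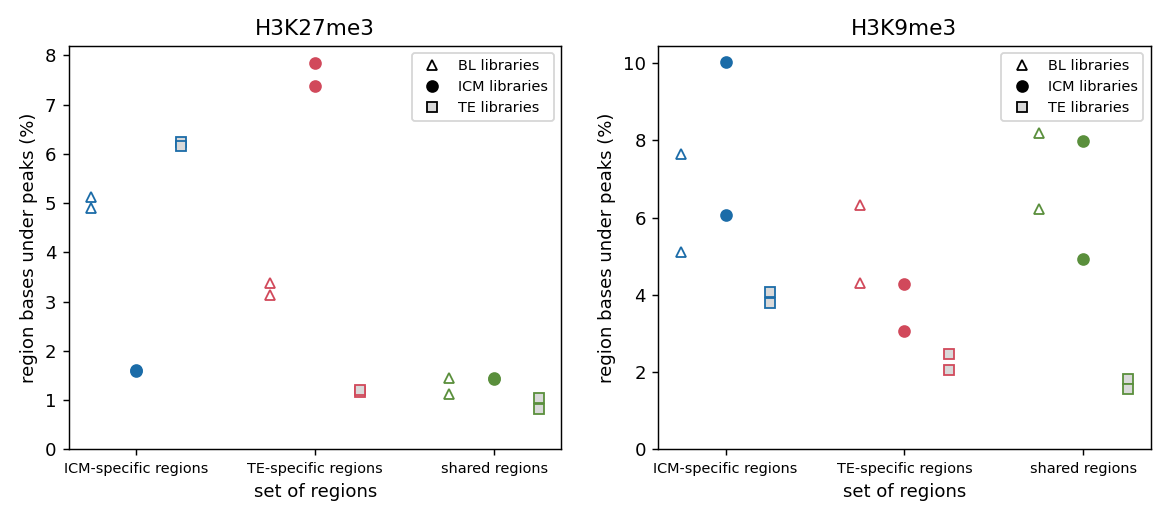
Percentage of region bases under H3K27me3 and H3K9me3 peaks (vertical axes) for ICM-specific, TE-specific and shared distal regions (horizontal axes); each symbol is 1 library of BL (triangles), ICM (circles) or TE (squares). H3K27me3 over ICM-specific regions was 1.61% and 1.59% in ICM and 6.24% and 6.16% in TE, and over TE-specific regions the order was reversed.

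Of the 305 regions marked by H3K27me3 in TE, 216 had no base under it in either ICM library and 58 were marked in ICM too, where 71 regions were marked in all (1.11%, against 1.54%). Of the 305, 219 (71.8%) were also marked in BL, 76 in MO and 66 in 8C. H3K27ac had marked 116 of these 305 in MO (38.0%) and 3798 of the 6089 other regions (62.4%). In BL it marked 11 of the 305 (3.61%) and 983 of the 6089 (16.1%). By first stage of H3K27ac, TE H3K27me3 was on 22 of the 68 regions first marked in 2C (32.4%), 89 of 708 of GV (12.6%), 113 of 1983 with no mark up to BL (5.70%), 4 of 64 of 4C (6.25%), 66 of 2926 of MO (2.26%), 2 of 116 of BL (1.72%) and 9 of 529 of 8C (1.70%). The 2C class is one of those that change in size when 1 library is left out. These shares are descriptions within the selected regions, and their differences were not tested.

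H3K9me3 showed the opposite order, with more in the ICM than in TE. It covered 6.07% and 10.0% of the bases in ICM and 4.07% and 3.79% in TE; the ICM lists differed in length, at 3.88% and 5.13% of the autosomes, and both were shorter than the TE lists, at 6.16% and 6.20%. In the ICM it marked 341 regions (5.33%, against 4.20% of all distal ICM stretches), all of which also had H3K27ac and open chromatin there by the choice. Of these, 248 had no base of H3K9me3 in either TE library. Of the 185 regions marked in TE, 74 were also marked in ICM and 73 had no base in either ICM library; 122 of the 185 were marked in BL and 68 in 8C. H3K27ac of MO marked 101 of the 185 (54.6%), against 61.4% of the others. Shared regions also had more H3K9me3 in ICM (4.93% and 7.98%) than in TE (1.82% and 1.55%). So did TE-specific regions, at 3.06% and 4.27% in ICM and 2.46% and 2.06% in TE. Unlike that of H3K27me3, this order did not reverse between the ICM-specific and TE-specific sets.

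Around the centres of the regions the marks had different widths. H3K27ac of MO lay over 67.0% of the central positions and still over 15.2% at 9 to 10 kb, against 20.8% and 6.70% in BL and 14.4% and 5.32% in 8C. In TE it was 6.89% at the centre and 5.78% at that distance. H3K9me3 of the ICM formed a broad rise, with 7.53% at the centre, 4.67% at 5 kb and 3.60% at 9 to 10 kb, while in TE it was flat at 3.62% and 3.30%. H3K27me3 was lower at the centre than in the flanks in ICM, 1.5% against 2.58%, and in TE, 5.60% against 6.22%, so in neither lineage was it centred on the regions.

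**Figure D4:**
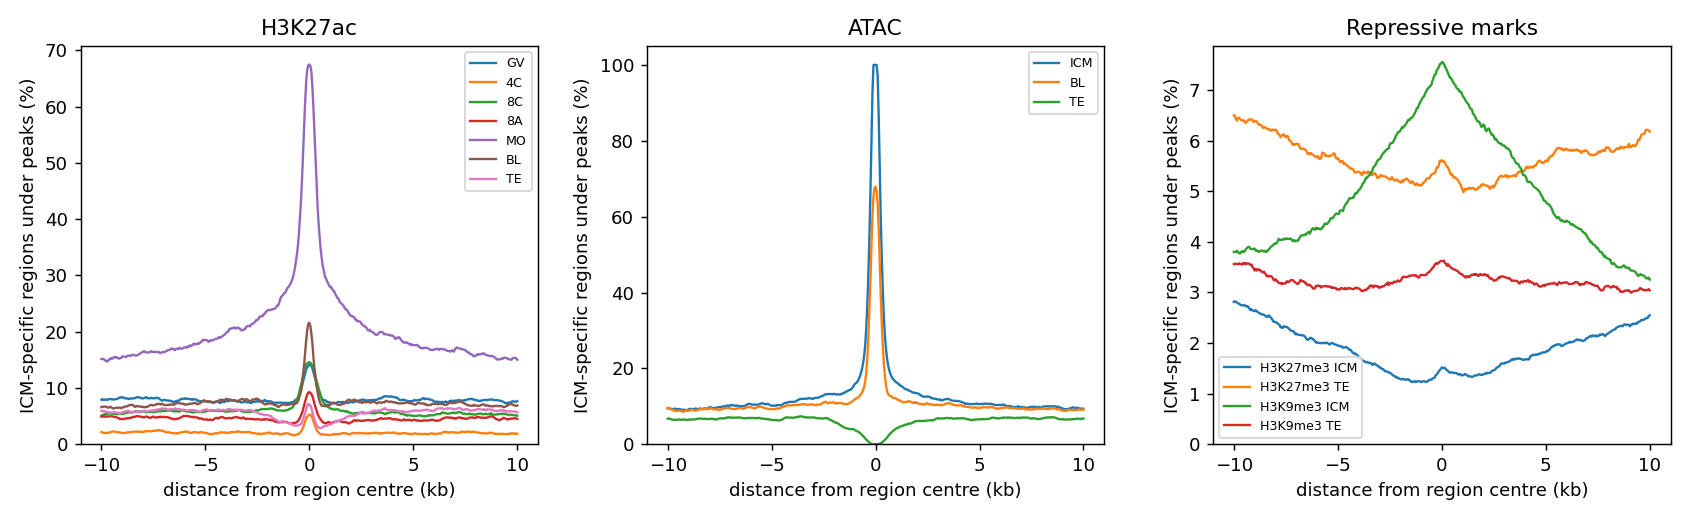
Percentage of ICM-specific regions under peaks (vertical axes, mean over the libraries of a group) by distance from the region centre in kb (horizontal axes), for H3K27ac, ATAC and the repressive marks of ICM and TE. H3K27ac of MO peaked at the centre above a wide shoulder, H3K9me3 of ICM rose broadly from 3.60% to 7.53%, and H3K27me3 of TE showed no such rise; ATAC of ICM and TE at the centre was set by the choice of regions.

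Single regions illustrate these courses. They were picked by length within a class, their coordinates are on ARS-UCD1.2, and no gene was assigned to them. The longest, chr9:54206201-54208550 (2350 bp), had no H3K27ac in any library from GV to 8C, 100% in both MO libraries, 25.5% and 31.9% in BL and 0% in TE. The third longest, chr7:30944901-30947000 (2100 bp), was covered at 100% in both 8C libraries, 0% in both 8A libraries, 97.6% in both MO libraries and 31.0% and 23.8% in BL. The same sequence was seen at chr16:60017751-60019800 (2050 bp), with 92.7% and 100% in 8C, 0% in 8A and 100% in MO, but there BL kept 80.5% and 100%. The second longest, chr7:60211851-60214000 (2150 bp), had 48.8% and 44.2% in GV, none from 2C to 8C, and 86.0% and 97.7% in MO.

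The fifth longest, chr6:50739501-50741400 (1900 bp), joined several of the states above. It had no H3K27ac up to 4C or in 8A and was fully covered in both libraries of 8C and of MO. In MO it was also under H3K4me3 at 100% in both libraries, with the nearest H3K4me3 peak of the blastocyst or its parts 780050 bp away. H3K9me3 covered 100% of it in both ICM libraries, 0% and 84.2% in BL, and none in TE or at any earlier stage.

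The regions with a repressive mark in TE and not in ICM had more varied histories. At chr17:50914201-50915500 (1300 bp), H3K27me3 covered 100% in both TE libraries and no base in any other group, BL included, and H3K27ac never reached 50% before the ICM. At chr1:82472501-82473900 (1400 bp), H3K27me3 covered 100% in both libraries of TE and of BL and none in ICM or MO. Earlier it covered 0% and 100% in 4C, none in 8C, and 100% and 92.9% in 8A. At chr15:65161701-65162900 (1200 bp), TE carried both repressive marks at 100% in both libraries and ICM neither. This region had had H3K27ac over 95.8% and 100% in 2C and 100% in both MO libraries, and H3K4me3 over 100% in both GV libraries. At chr19:8236001-8237500 (1500 bp), H3K9me3 covered 100% in both libraries of each group from GV to 8C, none in MO or ICM, and 100% in TE, while H3K27ac covered 96.7% and 100% in MO. At chr2:131197201-131198300 (1100 bp), both H3K27me3 and H3K9me3 covered every library from GV to 8C and of TE at 100%, and no ICM library.

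The H3K27ac stretch of the ICM with the most regions was at chr27:2054801-2062600 (7.8 kb), with 5 regions of 300 to 1300 bp. H3K27ac covered none of this stretch from GV to 8C or in TE, 96.2% and 98.1% in MO, and 48.1% and 55.1% in BL. H3K9me3 covered all of it in both ICM libraries and none in TE. At chr8:75651401-75656650 (5.25 kb, 4 regions) MO covered 100% in both libraries, and neither repressive mark had a base in ICM or TE. At chr10:43010751-43013200 (2.45 kb, 4 regions) MO covered 59.2% and 51.0%, and H3K27ac of BL none. All 5 regions of the first stretch and all 4 of the second were first marked in MO, compared with 2 of the 4 in the last.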

How the data were processed

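CUT&Tag and ATAC libraries of bovine oocytes and embryos were compared through the peak lists that the authors deposited, 1 per library. The submitters' processing notes name SICER, BWA 0.7.9a and SAMtools 1.9, further Picard 2.26.10, Trim Galore 0.4.0 and cutadapt 1.8.3, and build ARS-UCD1.2 of the genome. The file names point to epic2, so the caller was not settled. Cutoffs and controls of the peak calls were not given in the sources used. The deposited lists hold peak positions and, per peak, a score deposited by the authors whose meaning was not established; it was used only to rank peaks within a list. Depth was unknown, so no counting interval is given.

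Peaks were laid on a 50 bp grid of the autosomes with Python 3.11.15 and NumPy 2.4.6 and drawn with matplotlib 3.10.9. Groups and replicate numbers came from the labels. The percentage of region bases under peaks was compared across stages by exact permutation over all arrangements of libraries in pairs, and between region sets by exact sign flips, with Benjamini-Hochberg adjustment over 4 marks. Tests were checked on simulated data. Named regions were the 5 longest, the 3 longest with H3K27me3 and with H3K9me3 in TE but not ICM, the longest marked from 2C through BL (only 2 exist), and the 3 H3K27ac stretches of the ICM with most regions. The regions, measures and lists were chosen with earlier results of these data known. Genes and sequences were not analysed here. Same-numbered H3K27ac libraries of different stages did not deviate together, so replicate numbers were not used as pairs.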

Additional observations from a re-analysis of the deposited data

Results flagged for a closer look

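In each of 3 marks, both libraries of a stage lay on one side of 0 in the difference between ICM-specific and TE-specific regions and both libraries of the next stage on the other side. For H3K27ac the difference was 36.8 percentage points in MO and -39.6 in BL, a change of -76.4 points. For H3K27me3 it was -2.25 points in MO and 1.76 in BL, a change of 4.02 points. For H3K9me3 it was -5.03 points in 8C and 2.53 in MO, a change of 7.56 points. These changes between stages were not tested, and with 2 libraries a stage the smallest p of an exact two-sided permutation test of 1 such change is 0.333.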

How the results depend on the processing

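Depth was unknown, and a list could be longer through depth or through a wider mark. The number of regions depends on the lists: 3170 stretches met the rule at a shortest length of 400 bp and 1165 with all lists of an assay shortened to equal covered length, of which only 912 of the 6394 regions were overlapped. The leave-one-out range was 6812 to 8127 regions, since fewer lists had to meet. Against shared regions in place of TE-specific ones, the H3K27ac difference was -2.91 points (exact permutation p = 0.377) and the H3K4me3 difference -1.29 points (p = 0.00391). Counting regions with any covered base, 8C exceeded 8A by 5.00 percentage points in H3K27ac.

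With 1 covered library enough, 278 regions had H3K9me3 in TE, and the first stage of H3K27ac was GV for 1135, 2C for 210 and 4C for 174, with 1116 unmarked to BL. The alternatives that left out a library for the first stage and for the marks in TE, and the block for 8A, were chosen after seeing the data. Leaving out 1 library in turn gave 53 to 196 regions for 2C (most without 2C replicate 1), 50 to 173 for 4C (most without 4C replicate 2) and 56 to 201 for BL (fewest without MO replicate 2, most without BL replicate 1). It gave 708 to 938 for GV, 486 to 704 for 8C, 2786 to 3462 for MO and 1507 to 1957 unmarked to BL. The H3K4me3 stage test ranged from p = 0.00847 to 0.0783 in leave-one-out fits (exact permutation).

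With the replicate number as a block, the exact stage tests gave p = 0.00278 for each of H3K27ac and H3K9me3, 0.00139 for H3K27me3 and 0.025 for H3K4me3, and that of 8A against 8C 0.5, and no call changed. Deviations of same-numbered H3K27ac libraries correlated at -0.0432 to 0.0158 over 15 stage pairs, so the numbers were not taken as pairs. In all, 223 of the alternative values were classed as the same, 14 as moved, 3 as having lost the call and 2 as reversed. Counts of regions had no test and were classed with a ratio limit of 1.5. Among the 223 are first-stage counts that could not change, because a library of a later stage does not enter an earlier class. The tally is thus no measure of robustness.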

Other observations

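The X chromosome was outside the choice of regions. By the same rule it held 120 ICM-specific stretches, a density of 0.863 per Mb, below the 1.21 per Mb of the sparsest autosome, and 67 TE-specific stretches. H3K27ac marked 74 of the 120 in MO (61.7%), and H3K27me3 marked 2 of them in TE (1.67%).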
